A study of Mus musculus with 75 samples.

Results

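The regions described here are the restriction fragments of the Skap1 gene body seen by circularised chromosome conformation capture (4C) from a pair of viewpoints near the mouse Hoxb cluster. A fragment was included when its start lay on chromosome 11 between 96464593 and 96759130 (GRCm38, mm10), the span of Skap1 on the + strand. The genome holds 693 such fragments, out of 295454 on chromosome 11, when it is cut at every GATC. All 113589 chromosome 11 entries of the 16 interaction tables, summed over libraries, matched these intervals. Reads were summed per library and expressed as a percentage of that library's chromosome 11 reads.

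The libraries came from E14 mouse embryonic stem cells from which LIF and 2i, the factors that hold such cells undifferentiated, had been removed before a 24 h exposure to retinoic acid (RA) at 2 µM. All groups carried that treatment, so no untreated group enters the comparisons. The 4 genotypes were wild type (WT), a knockout of the retinoic acid receptor Rara (Rara-KO), a knockout of its dimer partner Rxra (Rxra-KO), and the combined knockout (RARX-DKO). Each genotype had 2 libraries per bait, for 8 libraries at the Hoxb-E1 bait and 8 at the Hoxb-E2 bait. Whether each knockout is 1 clone, and whether the replicates came from separate cultures, is not given in the sources used here, so p-values measure only the spread between these libraries. Gene counts from 8 RNA-seq libraries of the same 4 genotypes, and from 6 libraries overexpressing an empty vector (V-OE), Rara (Rara-OE) or Rxra (Rxra-OE), served as a readout that the choice of fragments did not use.

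In 4C, chromatin is crosslinked, cut, and ligated in place, and the sequences joined to a chosen viewpoint, the bait, are amplified and counted, so that a fragment's reads follow how often it lay near the bait. Contacts fall steeply with distance along the chromosome. Retinoid receptors bind as RAR and RXR dimers to direct repeats of a hexamer, and RA acting through them switches on Hox genes at the 3′ end of the clusters during patterning of the hindbrain and trunk. Skap1, which lies downstream of Hoxb1, encodes an adaptor protein known from T cell adhesion.

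The bait positions were read from the data as the 10-kb window with the most reads. At Hoxb-E1 this was chr11:96300001-96310000, inside the Hoxb cluster, in 8 of 8 libraries. At Hoxb-E2 it was chr11:96580001-96590000 in 7 of 8 libraries. That window lies in intron 4 of Skap1 (chr11:96541487-96702608), as numbered in 1 of its 10 annotated transcripts, which has 11 exons. This 161122-bp intron makes up more of the 294538-bp gene than all other introns and the 11 exons together. The last exon of another transcript, Skap1-205 (chr11:96581183-96582691), lies inside the bait window. Fragments starting in that window or in the 2 windows on each side, 50 kb called the Hoxb-E2 interval here, were therefore read only from Hoxb-E1. This left 581 Skap1 fragments for Hoxb-E2.

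Chromosome 11 read totals ran from 21404993 to 34118736 at Hoxb-E1 and from 2016623 to 30159479 at Hoxb-E2. The shallowest was RARX-DKO replicate 2 at Hoxb-E2. Within genotypes, replicate fragment counts differed by more than counting error, with a chi-square per degree of freedom of 1829 to 4413, so each library was kept as a sample of its own. The authors' tables give reads, not unique molecules, and no interval for counting error is given because that error was far below the spread between replicates.

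The results below refer to 5 stretches of sequence. They are printed from the RefSeq GRCm38.p6 genome, + strand, 5′ to 3′, with GATC cut sites in capitals. The first is shown because it covers most of a repeat that held much of the difference between genotypes in the window called below: it lies in intron 2, where cut sites follow each other about every 31 bases. The other 4, all in intron 4, are centred on the cut site shared by neighbouring fragments among the strongest at a bait; at each bait the site is the junction of fragments that were high together.
Tandem repeat, intron 2, chr11:96509205-96509504: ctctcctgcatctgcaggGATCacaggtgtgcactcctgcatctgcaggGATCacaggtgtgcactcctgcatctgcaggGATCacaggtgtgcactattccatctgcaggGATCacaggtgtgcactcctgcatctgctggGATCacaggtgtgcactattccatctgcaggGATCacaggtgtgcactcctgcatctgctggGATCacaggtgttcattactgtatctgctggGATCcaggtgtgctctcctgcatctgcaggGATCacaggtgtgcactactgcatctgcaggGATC
Hoxb-E1 site, chr11:96547903-96547982: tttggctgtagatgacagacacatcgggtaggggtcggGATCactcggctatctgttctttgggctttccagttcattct
Hoxb-E1 site, chr11:96563786-96563865: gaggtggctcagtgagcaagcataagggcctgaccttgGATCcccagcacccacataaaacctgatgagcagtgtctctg
Hoxb-E2 site, chr11:96556216-96556295: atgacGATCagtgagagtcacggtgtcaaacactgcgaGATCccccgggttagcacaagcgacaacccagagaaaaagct
Hoxb-E2 site, chr11:96667101-96667180: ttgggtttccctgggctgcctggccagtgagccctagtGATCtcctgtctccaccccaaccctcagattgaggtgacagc

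Skap1 was covered densely from both baits. At Hoxb-E1, 675 of the 693 fragments were listed in at least 1 library, 460 were listed in all 8, and 18 were never listed. Single libraries listed between 575 and 647 of them, with a median of 605.5. At Hoxb-E2, 575 of 581 fragments were listed in at least 1 library, 345 in all 8, and single libraries listed 454 to 566. Coverage hardly depended on where in the gene a fragment lay with respect to exons, since 34 of the 35 fragments overlapping an exon were listed at Hoxb-E1 and 31 of 31 at Hoxb-E2. Of the fragments under 50 bases, 86 of 93 were listed at Hoxb-E1 and 76 of 78 at Hoxb-E2 in at least 1 library. They were listed in all 8 libraries less widely than longer ones, at 48.4% beside 69.2% for Hoxb-E1 and 51.3% beside 60.6% for Hoxb-E2.

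Reads were spread over many fragments. At Hoxb-E1 the 10 strongest fragments held 14.03% of Skap1 reads in the sum of the libraries, and 71 fragments were needed to reach 50%. At Hoxb-E2 the corresponding values were 11.1% and 94 fragments. Fragment length and mean reads were nearly unrelated, with Spearman's rho of 0.072 at Hoxb-E1 and 0.092 at Hoxb-E2 across fragments, which share libraries and are not independent. Replicates ranked the fragments alike only in part: rho across fragments was 0.545 to 0.618 between replicates at Hoxb-E1 and 0.438 to 0.735 at Hoxb-E2.

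The values showed no common step at the borders of the gene. The fragment just outside the gene start, chr11:96464254-96464731, had a median of 0.0105% of chromosome 11 reads at Hoxb-E1 and 0.00698% at Hoxb-E2. The fragment just inside, chr11:96464734-96466566, had 0.00118% and 0.00506%. At the gene end the last fragment inside, chr11:96758675-96759559, had medians of 0.000271% and 0.0201%, and the next one outside, chr11:96759562-96761626, had 0.00124% and 0.0198%.

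From Hoxb-E1, Skap1 took between 17.5% and 26.4% of all chromosome 11 reads, and the genotypes did not differ beyond the spread between replicates. The WT libraries had 18.8% and 17.5% of chromosome 11 reads in Skap1. The Rara-KO libraries had 23.5% and 22.4%, and the Rxra-KO libraries 19.6% and 18.1%. The RARX-DKO libraries stood far apart from each other, at 18.9% and 26.4%. Both Rara-KO values lay above all WT and Rxra-KO values, while RARX-DKO replicate 1 lay among them. Means were 18.2% ± 0.909 in WT, 22.9% ± 0.807 in Rara-KO, 18.8% ± 1.08 in Rxra-KO and 22.6% ± 5.32 in RARX-DKO (SD, n = 2 each). An exact permutation test of the genotype effect, over all ways of forming 4 pairs from 8 libraries, gave p = 0.343, where 0.00952 is the smallest p it allows. Without RARX-DKO replicate 1 the same exact permutation test gave p = 0.0190.

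From Hoxb-E2, which sits inside the gene, the Skap1 fragments outside the interval took between 22.3% and 25.2%. WT libraries had 23.6% and 22.3%, Rara-KO 23.2% and 22.6%, Rxra-KO 25.0% and 22.4%, and RARX-DKO 25.2% and 23.9%. Both RARX-DKO libraries lay above all WT and Rara-KO libraries, while Rxra-KO overlapped every other genotype. The exact permutation test gave p = 0.514 with chromosome 11 reads as the denominator. With all reads of the library as the denominator the exact permutation test gave p = 0.0286. The share of a library's reads that fell on chromosome 11 itself went with genotype at this bait: it was 64.7% and 63.4% in WT, 59.9% and 57.6% in Rara-KO, 72.2% and 71.4% in Rxra-KO, and 57.1% and 59.3% in RARX-DKO, and its part in the result was not tested.

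**Figure D1:**
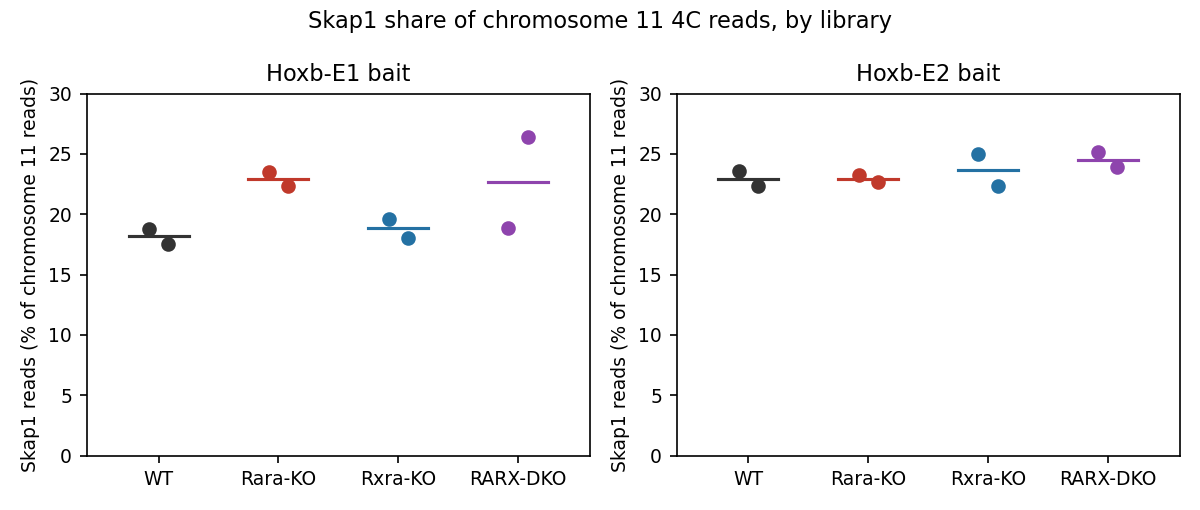
Reads in Skap1 fragments as a percentage of chromosome 11 reads (vertical axis) for the 4 genotypes at the Hoxb-E1 bait (left) and the Hoxb-E2 bait (right, without the Hoxb-E2 interval). Points are libraries and lines the mean of 2; at Hoxb-E1 the RARX-DKO libraries are at 18.9% and 26.4%, while at Hoxb-E2 all 8 libraries lie between 22.3% and 25.2%.

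Set against the rest of chromosome 11, the gene as a whole did not pass the test in any knockout. Chromosome 11 was tiled outward from Skap1 in pieces of the gene's own length, and all tiles were fitted with edgeR's quasi-likelihood test. At Hoxb-E1 the Skap1 tile had a log2 fold change over WT of 0.34 ± 0.17 (SE; adjusted p = 0.507) in Rara-KO, 0.05 ± 0.17 (adjusted p = 0.957) in Rxra-KO and 0.32 ± 0.17 (adjusted p = 0.691) in RARX-DKO. Of the 403 tiles tested, 0.496% were called in Rara-KO, 0.496% in Rxra-KO and 0% in RARX-DKO. At Hoxb-E2 the Skap1 tile had log2 fold changes of -0.00, 0.05 and 0.10 (edgeR adjusted p = 0.997, 1.00 and 0.852), with 0% of 399 tiles called in each knockout. These values moved with the scaling and the tool. At Hoxb-E1 the Skap1 tile was at 0.55 in Rara-KO, 0.86 in Rxra-KO and 0.30 in RARX-DKO with TMM, and at 0.71, 0.81 and 0.91 with DESeq2, none of which passed. At Hoxb-E2 DESeq2 gave 0.57 in Rara-KO, with an adjusted p of 0.0254, and TMM 0.19. The median of all tiles moved as well, at Hoxb-E1 from -0.61 to 0.16 with TMM in Rxra-KO, and relative to that median the Skap1 tile stood at 0.66 with chromosome 11 reads as library size and 0.70 with TMM. In RARX-DKO at Hoxb-E1 the Skap1 tile was level with the median of all tiles, 0.32, with chromosome 11 reads as library size. Without RARX-DKO replicate 1, the Skap1 tile at Hoxb-E1 had a log2 fold change of 0.54 in RARX-DKO with an edgeR adjusted p of 0.0211.

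Skap1 carried more Hoxb-E1 reads than the stretch lying at the same distances on the other side of the bait. That mirror stretch, chr11:95850871-96145408, held 2.69% to 4.55% of chromosome 11 reads per library. The log2 ratio of Skap1 to the mirror was 2.40 and 2.65 in WT, 2.37 and 3.06 in Rara-KO, 2.25 and 2.29 in Rxra-KO, and 2.25 and 3.20 in RARX-DKO. It was above 0 in 8 of 8 libraries, with a mean of 2.56, and the two-sided exact sign-flip permutation test gave p = 0.0078125, the smallest p that 8 libraries allow. Both Rxra-KO libraries lay below all WT and Rara-KO libraries, while RARX-DKO overlapped every other genotype; differences between genotypes in this ratio were not tested. By the number of distinct fragments in place of reads the mean log2 ratio was 0.96, again above 0 with an exact sign-flip permutation p of 0.0078125.

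Around Hoxb-E2, equal distances on both sides fall within Skap1, so the 5′ arm (chr11:96464593-96560000) was set against the 3′ arm (chr11:96610001-96705408). Over all libraries the arms did not differ beyond the spread between libraries, with a mean log2 ratio of -0.03 and a two-sided exact sign-flip permutation p of 0.8125. By genotype, the WT libraries had -0.41 and -0.29, the Rxra-KO libraries -0.24 and -0.19, the Rara-KO libraries 0.29 and 0.30, and the RARX-DKO libraries -0.05 and 0.38. Both Rara-KO libraries thus had more reads in the 5′ arm and both WT and both Rxra-KO libraries more in the 3′ arm. Without the tandem repeat of intron 2 the Rara-KO values became -0.37 and 0.20, and the separation of the groups was lost. Over all libraries the mean log2 ratio was -0.21 without that repeat, -0.19 with equal neighbours counted once and -0.18 without fragments under 50 bases (exact sign-flip permutation p = 0.0859, 0.0703 and 0.125). The number of distinct fragments gave a mean log2 ratio of 0.129 toward the 5′ arm, with an exact sign-flip permutation p of 0.0156. These numbers were not scaled by the cut fragments that each arm holds. The genome has 212 in the 3′ arm, while single libraries listed up to 232 in the 5′ arm. The test therefore cannot tell a difference in contacts from a difference in cut sites.

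**Figure D2:**
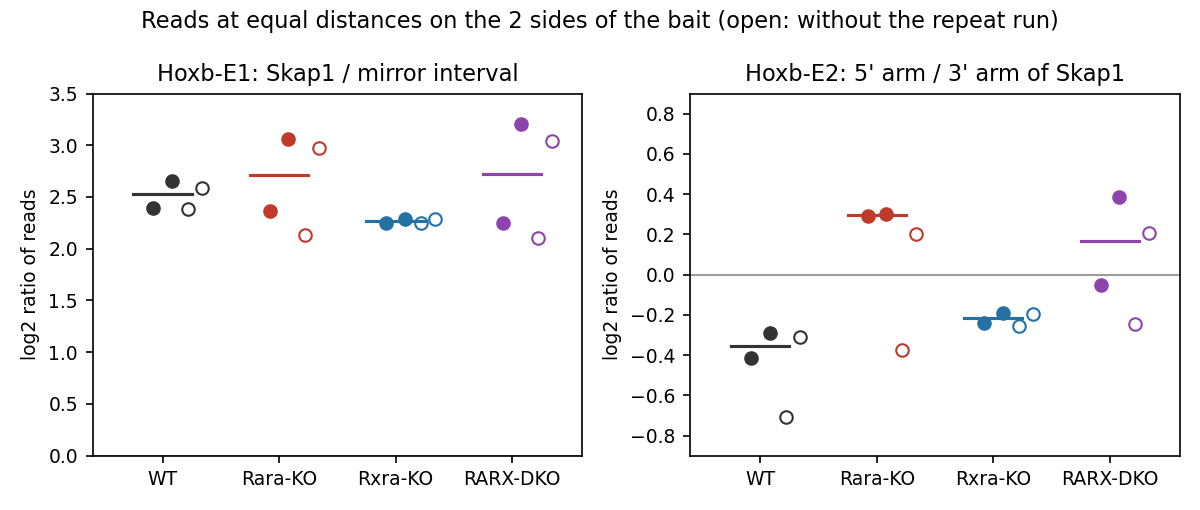
Log2 ratio of reads (vertical axis) between Skap1 and the mirror stretch at Hoxb-E1 (left) and between the 5′ and 3′ arms of Skap1 at Hoxb-E2 (right), by genotype, with filled points for all fragments and open points without the repeat of intron 2. All 8 libraries lie at 2.25 or above at Hoxb-E1, and the filled Rara-KO points at Hoxb-E2 are at 0.29 and 0.30 while the open ones are at -0.37 and 0.20.

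Along the gene, reads from both baits were densest, within the gene, in the first stretch of intron 4. Densities are given as the percentage of chromosome 11 reads per 10 kb, as medians over the 8 libraries of a bait. At Hoxb-E1 the stretch between Hoxb1 and the Skap1 start, which is nearer to the bait, had 1.30%. Inside the gene the median was 0.655% in intron 1, 0.818% in intron 2 and 0.617% in intron 3. It then rose to 1.58% in intron 4 up to the Hoxb-E2 interval, with a range of 1.09% to 1.86% over libraries. That stretch is farther from the Hoxb-E1 bait than introns 1 to 3, and its lowest library was above the intron 1 to 3 medians. Within the Hoxb-E2 interval the median was 0.788%, and in the rest of intron 4 it was 0.619%. Introns 5 to 8 had 0.378%, intron 9 had 0.275% and intron 10 had 0.446%, with ranges that overlap each other. The 100 kb past the gene end had 0.214%, between 0.160% and 0.350%.

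At Hoxb-E2 the first stretch of intron 4 again stood highest. The stretch of intron 4 before the interval had a median of 2.15% per 10 kb, between 1.57% and 2.43%, and it abuts the interval around the bait. Intron 4 past the interval had 1.10%, intron 3 had 0.952%, and introns 1 and 2 had 0.625% and 0.724%. Introns 5 to 8 had 0.495%, close to intron 2 without its repeat at 0.487%, with 0.481% in intron 9 and 0.717% in intron 10. The 100 kb past the gene had 0.445%. Over the 25 windows of 10 kb read from both baits, the mean profiles had a Spearman's rho of 0.756 and a Pearson's r of 0.719 on log2 values. The windows share libraries and are not independent, so this is a description.

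In single windows of 10 kb the maximum at Hoxb-E1 lay slightly farther along. The highest Skap1 window there was the first of the Hoxb-E2 interval, with 1.36% and 2.01% in WT, 2.16% and 2.65% in Rara-KO, 1.58% and 2.07% in Rxra-KO, and 2.29% and 3.35% in RARX-DKO. The second highest was the window with the intron 2 repeat, described below. The third, chr11:96550001-96560000, which ends where the Hoxb-E2 interval begins, had 0.98% and 1.57%, 1.80% and 2.55%, 1.02% and 1.13%, and 1.99% and 2.19% in the same order. In that window all Rara-KO and RARX-DKO libraries lay above all WT and Rxra-KO libraries, yet neither knockout passed the test over windows. At Hoxb-E2 the same window, chr11:96550001-96560000, was the highest of all, with 2.24% and 3.13% in WT, 1.98% and 3.06% in Rara-KO, 2.60% and 2.19% in Rxra-KO, and 2.34% and 2.69% in RARX-DKO. There the genotypes overlapped. The next at Hoxb-E2, chr11:96670001-96680000 on the far side of the bait, ranged from 1.27% in Rxra-KO replicate 2 to 2.17% in RARX-DKO replicate 1.

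The windows holding the ends of the gene were not among the 3 strongest at either bait, but most stood above their neighbours. The window holding the Skap1 start had a mean of 1.09% at Hoxb-E1 and 0.97% at Hoxb-E2. At Hoxb-E1 its WT libraries, at 0.75% and 1.74%, stood farther apart than the libraries of all other genotypes, which ran from 0.61% to 1.40%. The window holding the gene end had means of 0.79% and 1.03%. At Hoxb-E1 the median of the start window was 1.03%, beside 0.379% and 0.594% in the adjoining windows. For the end window it was 0.726%, beside 0.208% and 0.240%. At Hoxb-E2 the start window had 0.855%, beside 0.724% and 0.877%, and the end window 0.996%, beside 0.556% and 0.485%. Just past Snx11, the next gene downstream, reads at Hoxb-E1 were low, with medians of 0.067% and 0.039% in the windows starting at 96780001 and 96790001, and then returned to 0.185% at 96800001 and 0.725% at 96850001. The last of these was level with the window of the gene end, whose median was 0.726%. At Hoxb-E2 the windows at 96780001 and 96790001 both had 0.187%. Seen from Hoxb-E1, the window of the Hoxb-E2 bait itself had a median of 0.897%, above the 0.540% and 0.301% of the adjoining windows. It stayed below the first window of the Hoxb-E2 interval, whose median was 2.11%. By library, WT had 0.72% and 0.93%, Rara-KO 1.20% and 1.28%, Rxra-KO 0.88% and 0.74%, and RARX-DKO 0.44% and 0.91%. Not every library followed the medians. The adjoining window on the 5′ side was higher in Rxra-KO replicate 1, at 1.19%, and in both RARX-DKO libraries, at 0.53% and 1.03%.

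**Figure D3:**
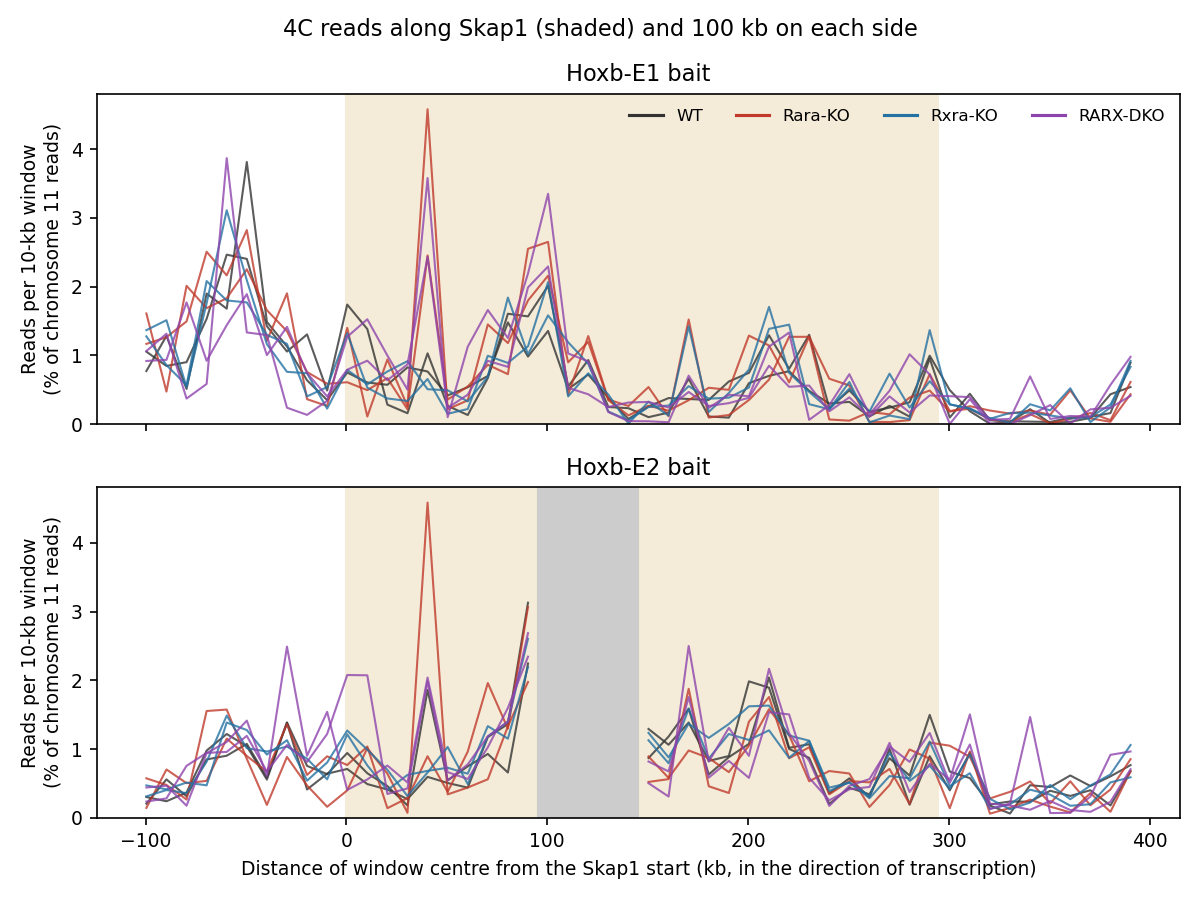
Reads per 10-kb window as a percentage of chromosome 11 reads (vertical axis) against the distance from the Skap1 start in kb (horizontal axis). Each line is 1 library, coloured by genotype, for Hoxb-E1 (top) and Hoxb-E2 (bottom), with the gene shaded. At both baits the lines are high in the first stretch of intron 4, and the tallest spike is the window with the intron 2 repeat. That spike reaches 4.58% at Hoxb-E1 and 4.59% at Hoxb-E2, each in Rara-KO replicate 1.

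At the level of fragments, the strongest Hoxb-E1 contacts were 2 adjoining pairs and 1 more fragment, all in intron 4. The fragments chr11:96562631-96563824 and chr11:96563827-96564637, which meet at a GATC site printed above, averaged 0.393% and 0.404% of chromosome 11 reads. The first ran from 0.108% in WT replicate 1 to 0.901% in RARX-DKO replicate 2. The second pair, chr11:96547348-96547941 and chr11:96547944-96548540, averaged 0.326% and 0.298%, with its highest values, 0.620% and 0.656%, in Rxra-KO replicate 1. The last of the 5, chr11:96566842-96567575, averaged 0.306%. In each pair the fragments were high and low in the same libraries, and the replicates of several genotypes stood far apart, as in the WT libraries at 0.108% and 0.410% for the first fragment.

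At Hoxb-E2 the strongest fragments lay on both sides of the bait, again in intron 4. On the 5′ side, chr11:96556257-96556677 averaged 0.337%, with 0.218% and 0.324% in WT and 0.356% and 0.572% in Rara-KO. Its neighbour chr11:96556224-96556254, only 30 bases long, averaged 0.306%. On the 3′ side, chr11:96665405-96667139 averaged 0.336%, with 0.694% and 0.215% in WT, and the adjoining chr11:96667142-96667585 averaged 0.286%. The fragment chr11:96670783-96671060 averaged 0.257% and varied least among these, from 0.158% to 0.352%. The Hoxb-E1 fragment chr11:96547348-96547941 was also among the 6 strongest at Hoxb-E2, at 0.239%.

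The authors' deposited tables attach a q-value to each fragment in each library. At Hoxb-E1, 48 Skap1 fragments, 7.11% of those listed, had a q-value under 0.05 in at least 1 library; over all chromosome 11 fragments with an entry the share was 0.607%, and over fragments within 1 Mb of the bait it was 2.94%. At Hoxb-E2 the count was 50 fragments, 8.70% of those listed, beside 0.705% of chromosome 11 and 3.37% within 1 Mb. These calls were uneven between replicates: 0 Skap1 fragments passed in WT replicate 2 and in Rxra-KO replicate 2 at Hoxb-E1, against 7 and 11 in their partners and 26 in Rara-KO replicate 1. At Hoxb-E2 the number per library ran from 7 to 28. Neighbouring short fragments of the intron 2 repeat, described below, are part of these counts and of the 48 and 50 fragments above. They made up 7 of the 26 in Rara-KO replicate 1 at Hoxb-E1. At Hoxb-E2 they made up 10 of the 28 in Rara-KO replicate 1. No fragment passed in more than 4 of 8 libraries at Hoxb-E1, the highest being chr11:96566842-96567575 and the pair at chr11:96547348-96548540. At Hoxb-E2, chr11:96556257-96556677 and chr11:96665405-96667139 passed in 6 of 8.

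To compare genotypes along the gene, all 10-kb windows within 1 Mb of a bait were fitted with edgeR's quasi-likelihood test. At Hoxb-E1, 30 Skap1 windows were among 196 tested. In Rara-KO 1 Skap1 window was called higher, the only window tested that was. Of all windows, 0.51% were called higher and 0.51% lower, or 1.02% in either direction. No Skap1 window was called in Rxra-KO or RARX-DKO, where 0% of all windows were called. At Hoxb-E2, 25 Skap1 windows were among 195 tested, and 0% of windows were called in each of the 3 knockouts. At an unadjusted p under 0.05, the edgeR counts of Skap1 windows for Rara-KO, Rxra-KO and RARX-DKO were 2, 0 and 1 at Hoxb-E1 and 0, 0 and 3 at Hoxb-E2. DESeq2 called 0, 0 and 1 Skap1 windows at Hoxb-E1 and 0 in all at Hoxb-E2.

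The other Skap1 windows did not pass, although single ones moved far in both directions: at Hoxb-E1 the fitted log2 fold changes ran from -1.71 to 1.97 in Rara-KO, from -2.23 to 0.94 in Rxra-KO and from -1.51 to 1.74 in RARX-DKO. In Rara-KO the median log2 fold change at Hoxb-E1 was 0.27 over Skap1 windows and 0.03 over all windows tested. In RARX-DKO these medians were 0.15 and -0.04, and in Rxra-KO -0.02 and -0.09. At Hoxb-E2 the medians of Skap1 and of all windows were -0.13 and -0.16 in Rara-KO, 0.13 and 0.05 in Rxra-KO, and 0.19 and -0.14 in RARX-DKO. The 3 contrasts share the WT libraries.

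The called window, chr11:96500001-96510000 in intron 2, was higher in Rara-KO than in WT. At Hoxb-E1 it held 0.768% and 1.03% of chromosome 11 reads in WT, 4.58% and 2.45% in Rara-KO, 0.510% and 0.658% in Rxra-KO, and 2.43% and 3.58% in RARX-DKO. All 4 libraries lacking Rara lay above all 4 that have it. The log2 fold change in Rara-KO was 1.97 with an edgeR adjusted p of 0.00607. In RARX-DKO it was 1.74 (edgeR adjusted p = 0.0687), and in Rxra-KO -0.62 (adjusted p = 0.989). The Rara-KO call rested on particular libraries: the edgeR adjusted p was 0.614 without WT replicate 1, 0.135 without WT replicate 2 and 0.579 without Rara-KO replicate 1, while the log2 fold change stayed between 1.45 and 2.196 in these fits. With DESeq2 the adjusted p was 0.0681 in Rara-KO and 0.0472 in RARX-DKO. Without Rara-KO replicate 2 edgeR called 2 Skap1 windows in Rara-KO, and without RARX-DKO replicate 1 it called 2 in RARX-DKO, where this window had an adjusted p of 0.0162.

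From Hoxb-E2 the same window gave no call. It held 1.86% and 0.596% in WT, 4.59% and 0.896% in Rara-KO, 0.659% and 0.683% in Rxra-KO, and 2.04% and 1.98% in RARX-DKO. The Rara-KO replicates differed by more than the genotypes did. Log2 fold changes were 1.16, -0.87 and 0.71 in Rara-KO, Rxra-KO and RARX-DKO (edgeR adjusted p = 0.840, 0.989 and 1.00), and without Rara-KO replicate 1 the Rara-KO value was -0.46.

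Much of the difference between genotypes in this window lay in the tandem repeat printed above in part. There, 11 consecutive fragments under 50 bases lie at chr11:96509144-96509501, 1 of 76 runs of at least 5 such fragments on chromosome 11. At Hoxb-E1 the run alone held 0.209% and 0.774% in WT, 3.54% and 1.32% in Rara-KO, 0.00584% and 0.00366% in Rxra-KO, and 1.74% and 2.75% in RARX-DKO. The Rxra-KO libraries were the lowest by far, the WT libraries came next, and the 4 libraries lacking Rara were highest, with Rara-KO and RARX-DKO overlapping. At Hoxb-E2 the run held 1.55% and 0.110% in WT, 4.05% and 0.709% in Rara-KO, 0.0974% and 0.0327% in Rxra-KO, and 1.29% and 1.35% in RARX-DKO. Rxra-KO was again lowest, and the WT and Rara-KO libraries overlapped.

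**Figure D4:**
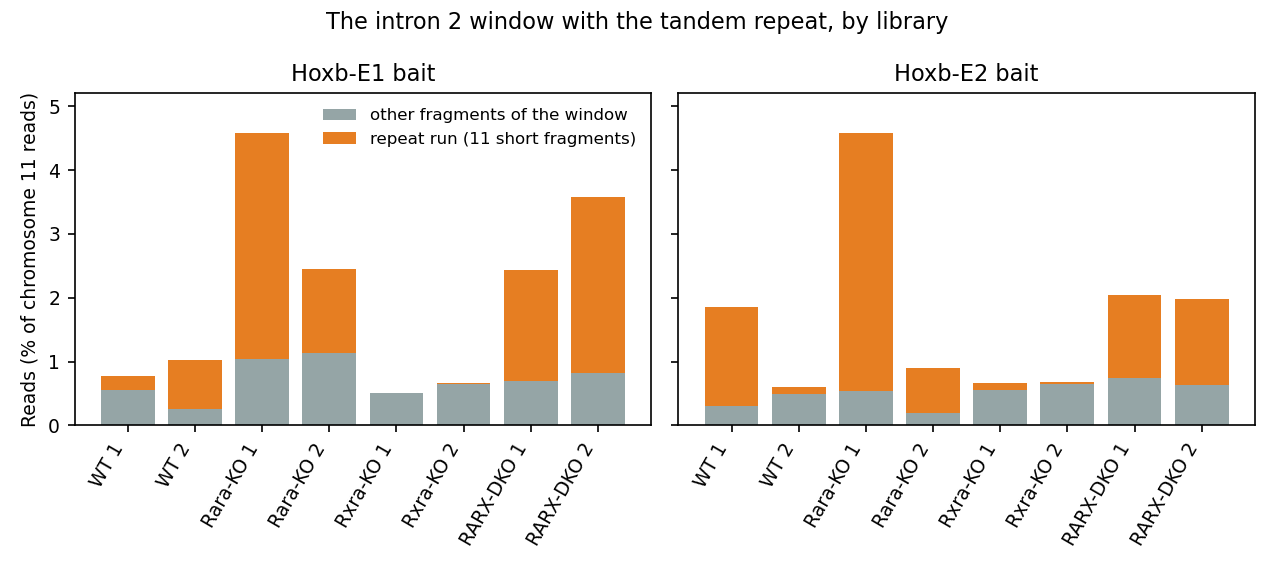
Reads of the intron 2 window as a percentage of chromosome 11 reads (vertical axis), by library, with the part in the repeat run stacked on the rest, for Hoxb-E1 (left) and Hoxb-E2 (right). At Hoxb-E1 the run gives 3.54% and 1.32% in the Rara-KO libraries and under 0.01% in the Rxra-KO libraries.

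The rest of the window was steadier. Without the run it held 0.558% and 0.257% in WT at Hoxb-E1, 1.04% and 1.13% in Rara-KO, 0.504% and 0.655% in Rxra-KO, and 0.693% and 0.825% in RARX-DKO. Libraries lacking Rara were still the highest 4, but the log2 fold change in Rara-KO was 1.44 with an edgeR adjusted p of 0.993. In RARX-DKO it was 0.92 (adjusted p = 0.999) and in Rxra-KO it turned to 0.50. At Hoxb-E2 the remainder overlapped between genotypes, from 0.186% in Rara-KO replicate 2 to 0.746% in RARX-DKO replicate 1.

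Within the run the reads came in plateaus of nearly equal counts. At Hoxb-E2, Rara-KO replicate 2 had 4205, 4208, 4209, 4158 and 4122 reads on 5 consecutive fragments and 2150, 2153, 2149, 2145 and 2145 on the next 5 to the end of the run. At Hoxb-E1, Rxra-KO replicate 2 had 9 reads on each of 4 fragments, then 188, 190, 293 and 293. Over the whole gene, pairs of neighbouring fragments with at least 100 reads each agreed within 5% in 942 of 3095 Skap1 cases at Hoxb-E1 (30.4%), beside 59.3% over chromosome 11. At Hoxb-E2 the values were 23.7% and 61.0%. Whether the authors' counting assigned a read to several short fragments that it spans is not given in the sources used here, and its part in the result was not tested. Counting each plateau once, an alternative chosen after seeing the data, gave a log2 fold change at Hoxb-E1 of 2.27 in Rara-KO (edgeR adjusted p = 0.00459) and of 2.44 in RARX-DKO (adjusted p = 0.00294), and of 0.43 in Rxra-KO.

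**Figure D5:**
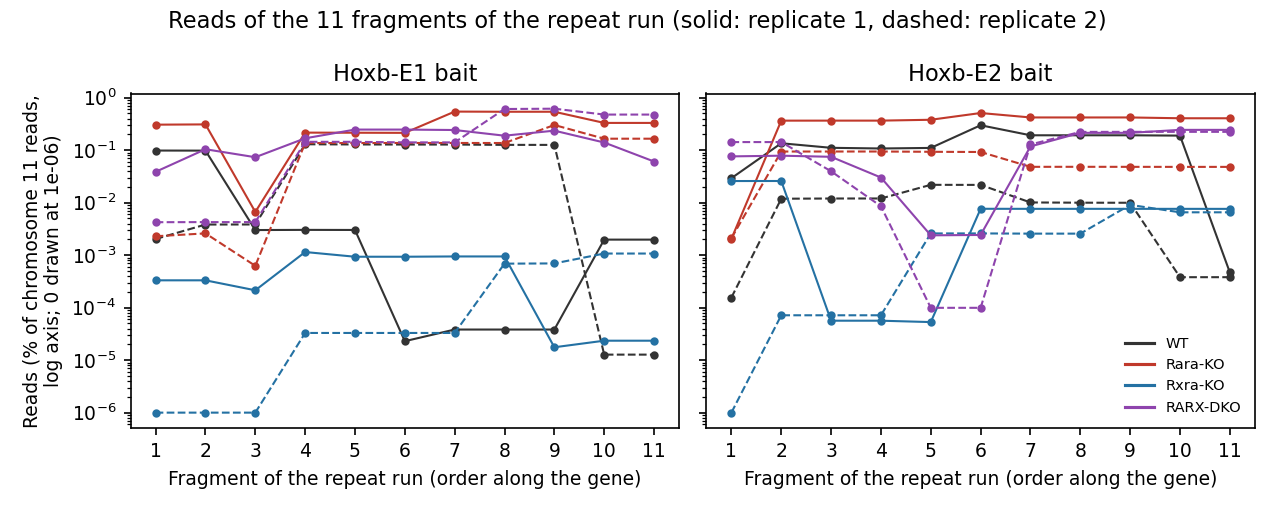
Reads of each of the 11 fragments of the intron 2 repeat run as a percentage of chromosome 11 reads (vertical axis, log scale, with 0 drawn at the bottom) in their order along the gene (horizontal axis), with 1 line per library, for Hoxb-E1 (left) and Hoxb-E2 (right). Lines run flat over several fragments and then step, and the Rxra-KO lines at Hoxb-E1 lie lowest, with run totals of 0.00584% and 0.00366%.

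Because both knocked-out genes encode receptors that bind direct repeats, the gene was searched for them. A match was any pair of the hexamers AGGTCA or AGTTCA, or their relatives GGGTCA or else GGTTCA, in the same orientation, on either strand, separated by 1 (DR1), 2 (DR2) or 5 (DR5) bases; the motif classes do not contain each other. Skap1 held 2 DR1, 4 DR2 and 2 DR5 matches. The DR1 matches fell in 1 of the 28 windows of 10 kb lying wholly in the gene, the DR2 matches in 4 and the DR5 matches in 2. Over 11875 windows of chromosome 11, 7.45% held a DR1, 11.4% a DR2 and 3.71% a DR5. The Hoxb-E2 interval held 5 of the 8 Skap1 matches, namely both DR1 and 3 of the DR2. They are printed with 20 bases on each side from RefSeq GRCm38.p6, in the orientation of the strand named, with the hexamers and the bases between them in capitals, because they lie beside the Hoxb-E2 bait.
DR2, + strand, chr11:96576942-96576995: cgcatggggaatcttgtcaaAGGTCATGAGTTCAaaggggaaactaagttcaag
DR1, + strand, chr11:96578669-96578721: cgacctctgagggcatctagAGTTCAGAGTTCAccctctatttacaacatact
DR1, + strand, chr11:96578888-96578940: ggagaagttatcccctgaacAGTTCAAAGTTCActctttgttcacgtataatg
DR2, - strand, chr11:96582710-96582763: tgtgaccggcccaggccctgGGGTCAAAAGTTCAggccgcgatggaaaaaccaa
DR2, + strand, chr11:96594424-96594477: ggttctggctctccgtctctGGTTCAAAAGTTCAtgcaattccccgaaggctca

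The remaining matches were a DR2 in intron 6 and DR5 matches at chr11:96545171-96545187 and chr11:96645962-96645978 in intron 4. The called window in intron 2 held none of these letters. A match is a run of letters, and binding of a receptor there was not analysed here.

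Skap1 RNA was close to the limit of detection in these cells. The lincRNA 2010300F17Rik overlaps its 3′ part on the - strand, and whether the counting used strand is not given in the sources used here. In the knockout table it had 13 and 27 counts in WT, 6 and 11 in Rara-KO, 5 and 9 in Rxra-KO, and 1 and 3 in RARX-DKO, out of library totals of 7408691 to 13052102. As CPM, counts scaled to the size of the library, these were 1.20 and 2.07, 0.641 and 1.20, 0.650 and 1.14, and 0.113 and 0.407. Both RARX-DKO libraries lay below all others, while Rara-KO and Rxra-KO reached the lower WT value or came close to it. The RARX-DKO to WT ratio of pooled CPM was 0.148, with an exact 95% counting interval of 0.0384 to 0.409 that does not include the spread between replicates.

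No knockout passed the test over all genes for Skap1. The edgeR log2 fold changes were -0.83 ± 0.61 (SE; adjusted p = 0.672) in Rara-KO, -0.87 ± 0.63 (adjusted p = 0.553) in Rxra-KO and -2.66 ± 0.78 (adjusted p = 0.104) in RARX-DKO. The RARX-DKO value was -1.98 without RARX-DKO replicate 1 and -3.72 without RARX-DKO replicate 2 (edgeR adjusted p = 0.370 and 0.116). Of 16445 genes tested, 0.645%, 2.47% and 2.24% were called in these contrasts, which share the WT libraries. Without a filter on low counts the RARX-DKO adjusted p from edgeR was 0.0412. Under overexpression, Skap1 had 13 and 10 counts with V-OE, 7 and 3 with Rara-OE and 12 and 16 with Rxra-OE. The log2 fold changes were -1.17 ± 0.61 (edgeR adjusted p = 0.155) and 0.10 ± 0.50 (adjusted p = 0.880), where 28.6% and 60.2% of 16914 genes were called.

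The flanking list held 10 Hoxb genes, which encode homeodomain transcription factors that set position along the body axis, and 8 genes past the Skap1 end. In the knockouts 0 of the 8 genes past Skap1 was called, while Hoxb genes fell in 2 contrasts. In Rxra-KO 2 of 10 fell, beside 1.2% of all genes: the log2 fold changes were -3.29 for Hoxb6 and -1.31 for Hoxb9 (edgeR adjusted p = 0.0373 and 0.0428). In RARX-DKO 3 of 10 fell, where 1.19% of all genes were called lower and 1.05% higher: the log2 fold changes were -3.75 for Hoxb1, -3.42 for Hoxb6 and -1.33 for Hoxb9 (edgeR adjusted p = 0.0423, 0.0362 and 0.0440). The RARX-DKO libraries stood far apart, with Hoxb1 at 0 and 2.58 CPM and Hoxb6 at 0.113 and 2.85 CPM, where WT had 16.5 and 16.5 for Hoxb1 and 13.8 and 16.5 for Hoxb6. In Rara-KO 0 of 10 was called, beside 0.255% of all genes called lower and 0.389% higher. These counts changed with the libraries fitted. With 1 library left out, 0 to 9 of the 10 Hoxb genes were called lower in RARX-DKO: 9 without RARX-DKO replicate 2, 3 without RARX-DKO replicate 1, 1 without either Rxra-KO library and 0 without any of the WT or Rara-KO libraries. In Rxra-KO the count was 8 without either RARX-DKO library and 0 without any of the others, and in Rara-KO it was 3 without either RARX-DKO library and 0 otherwise. The list medians over the Hoxb genes were log2 fold changes of -1.04, -1.50 and -1.85 in Rara-KO, Rxra-KO and RARX-DKO.

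With receptor overexpression more of the Hoxb genes passed the test. In Rara-OE 6 of 10 were called higher, beside 14.7% of all genes, with log2 fold changes of 2.34 for Hoxb3, 2.01 for Hoxb6 and 1.91 for Hoxb1. In Rxra-OE 9 of 10 were called higher, beside 30.9% of all genes, led by Hoxb3 at 3.51, Hoxb1 at 3.25 and Hoxb13 at 3.02. Hoxb9 passed in neither, and Hoxb2, Hoxb5 and Hoxb7 did not pass in Rara-OE. With 1 library left out, 4 to 6 Hoxb genes were called higher in Rara-OE (4 without Rara-OE replicate 1 and 4 without V-OE replicate 2) and 8 to 9 in Rxra-OE. Cell state markers differed between the same groups: the summed CPM of the 5 stem cell markers was 5343 and 5176 with V-OE, 3812 and 3851 with Rara-OE, and 1227 and 1251 with Rxra-OE. The summed CPM of the 4 primitive endoderm markers was 31.2 and 34.7, 199 and 213, and 256 and 254 in the same order. The part of these markers in the result was not tested. Of the 8 genes past Skap1, 2 were called lower in Rara-OE, beside 13.9% of all genes, and in Rxra-OE 6 were lower and 2 higher, beside 29.3% and 30.9%. Skap1 itself, between these groups, passed in neither.

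The RNA libraries were checked against their labels. Rara stood at 99.9 and 108 CPM in WT and 5.34 and 4.36 in Rara-KO, with 5.55 and 6.51 in RARX-DKO. Rxra was reduced but not lost, at 38.2 and 45.9 CPM in WT, 18.3 and 16.1 in Rxra-KO and 13.6 and 27.5 in RARX-DKO. The stem cell marker Pou5f1 was between 1438 and 1978 CPM in the knockout table. Of the T cell markers, where SKAP1 protein is known to act, Cd3g was at 0 in all 8 libraries and Fyb had at most 2 counts, while Lck was at 11.04 to 22.5 CPM and Cd3e at 1.07 to 7.101 CPM. Of the 5 fibroblast markers, Col3a1 and S100a4 were at 0 in the same 8 libraries, Col1a2 had at most 3 counts, and Col1a1 and Thy1 were at 1.17 to 7.62 and 1.84 to 9.77 CPM. Their summed CPM was 6.53 and 6.67 in WT, 8.75 and 11.8 in Rara-KO, 4.81 and 6.21 in Rxra-KO, and 13.7 and 15.6 in RARX-DKO. The summed CPM of the 4 primitive endoderm markers was 77.5 and 75.6 in WT, 29.9 and 35.7 in Rara-KO, 111 and 118 in Rxra-KO, and 18.4 and 22.0 in RARX-DKO, so the genotypes did not overlap. The part of these markers in the results above was not tested.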

How the data were processed

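For each of 16 libraries the authors deposited a table of reads per restriction fragment (counts) with a p-value and a q-value for each fragment; whole-number gene counts were deposited for 14 RNA-seq libraries. Per the submitters' processing notes the build was mm10, and the tools named, with no role, were Bowtie2 2.3.1, HISAT2 2.1.0, MACS2 2.2.7.1, HTSeq 0.9.1 and DESeq2 1.18.1; the 4C counting tool is not given in the sources used here. Samples were grouped by bait and genotype from the labels. The members, gene lists and tests were chosen with earlier results of these data known.

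Reads were summed over Skap1, over 10-kb windows within 1 Mb of the bait window (mean of 10 or more reads, bait window and 2 windows on each side left out) and over Skap1-sized tiles, with chromosome 11 reads as library size. Windows, tiles and genes (TMM, filterByExpr at a minimum count of 10) were fitted with edgeR 4.0.16 in R 4.3.3 by the quasi-likelihood test over all genotypes of a bait, with Benjamini-Hochberg adjustment and a threshold of 0.05; DESeq2 1.42.0 was an alternative. The fits were tested on simulated counts with known changes. At Hoxb-E1 the window test found 0 of 7 windows changed 2-fold, 1 of 7 changed 8-fold and 5 of 6 changed 32-fold. At Hoxb-E2 it found 1 of 7, 2 of 7 and 6 of 6. A window without a call may therefore still differ between genotypes. Single values were compared by exact permutation tests. Precision is limited by the 2 libraries per group, and by depth where counts are few, as for Skap1 RNA. Named were the 3 strongest windows per bait, those holding the gene ends, called windows, the 5 fragments with the highest mean share and the 5 with a q-value under 0.05 in the most libraries at each bait, and at most 3 called genes of the flanking list per contrast. Alternatives covered scaling, filters, window size, scope, capped fragments, denominators, a replicate block, single libraries left out and, after seeing the data, short fragments, the repeat run and equal neighbours.

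Gene annotation was GENCODE M21. The 20 ChIP samples, 16 libraries of Cyp26 baits and 9 columns of samples outside the RNA-seq groups were not used here.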

Additional observations from a re-analysis of the deposited data

Results flagged for a closer look

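At the Hoxb-E2 bait, the log2 ratio of reads in the 5′ arm of Skap1 to reads in its 3′ arm was above 0 in both Rara-KO libraries and below 0 in both WT libraries, and the mean of Rara-KO minus the mean of WT was 0.65. In the same ratio both Rxra-KO libraries were below 0, and the mean of Rxra-KO minus the mean of Rara-KO was -0.51. Both results are listed because every library of one group lay on the opposite side of 0 from every library of the other; neither difference was tested. Without the tandem repeat of intron 2 the Rara-KO libraries were at -0.37 and 0.20, without fragments under 50 bases at -0.30 and 0.17, and with equal neighbours counted once at -0.25 and 0.12, so that they no longer lay on the same side of 0.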

How the results depend on the processing

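Of 170 values of the main comparisons under alternatives that kept all libraries, 156 kept direction and call, 9 counts moved, 3 values reversed and 2 newly passed; of 164 with 1 library left out, 149 kept them, 5 moved, 8 reversed and 2 newly passed. The call of the intron 2 window in Rara-KO at Hoxb-E1 was the least steady: 0 Skap1 windows were called with TMM, with DESeq2, with 5-kb and 20-kb windows, over all of chromosome 11, without fragments under 50 bases and without the repeat run, and 0 to 2 when 1 library was left out. In RARX-DKO at Hoxb-E1, 1 Skap1 window was called with DESeq2 and with equal neighbours counted once, and 0 to 2 when 1 library was left out. The log2 fold change of that window in Rxra-KO at Hoxb-E1 turned to 0.43 with equal neighbours counted once, 0.45 without short fragments and 0.50 without the run. At Hoxb-E2 it turned in Rara-KO to -0.054 without short fragments and -0.094 without the run, with -0.46 to 2.201 when 1 library was left out, and in Rxra-KO to 0.50 and 0.61, with -1.47 to 0.17. The exact permutation p for the share by genotype was 0.0190 to 0.514 at Hoxb-E1 and 0.248 to 0.857 at Hoxb-E2 with 1 library left out, and 0.0286 at Hoxb-E2 with all reads as the denominator. The mean 5′ to 3′ log2 ratio at Hoxb-E2 was -0.086 to 0.029 with 1 library left out and 0.129 by distinct fragments. The last value was not scaled by the cut fragments of each arm. For the Skap1 tile, leaving out 1 library gave log2 fold changes of -0.0085 to 0.11 in Rxra-KO and 0.056 to 0.54 in RARX-DKO at Hoxb-E1, and of -0.041 to 0.040 in Rara-KO and -0.037 to 0.12 in Rxra-KO at Hoxb-E2. The Rara-KO tile at Hoxb-E2 was 0.19 with TMM and 0.57 with DESeq2; at Hoxb-E1 the tile in Rxra-KO was 0.86 and 0.81, in RARX-DKO 0.30 and 0.91, and in Rara-KO 0.55 and 0.71. For Skap1 RNA, RARX-DKO was at -2.66 without the filter, where it passed, and Rxra-OE at -0.20 to 0.42 with 1 library left out. The causes were not tested, except that fewer libraries or other scaling factors entered by construction.

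By their deviations over windows and genes, same-numbered libraries were not clearly paired. The correlations were -0.03 to 0.20 at Hoxb-E1 and -0.10 to 0.04 at Hoxb-E2. They were -0.25 to 0.13 in the knockout RNA and -0.02 to 0.00 in the overexpression RNA. Replicate number did go with depth: at both baits, replicate 2 of every genotype had fewer reads and fewer listed fragments than replicate 1. The cause of this difference in depth was not tested. With the replicate block, 1 Skap1 window was still called in Rara-KO at Hoxb-E1 and Skap1 RNA in RARX-DKO had an edgeR adjusted p of 0.0972; no call changed.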
